A study of Mus musculus with 24 samples.

Results

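The CCN family is a set of secreted, cysteine-rich proteins of the extracellular matrix, named after its first members Cyr61 (now Ccn1), Ctgf (now Ccn2) and Nov (now Ccn3). The 5 genes Ccn1, Ccn2, Ccn3, Ccn4 and Ccn5 were taken by name from a table of 40141 mouse genes measured in 24 aorta libraries, and all 5 passed the filter on low counts. The animals were wild type or Cthrc1-/- and had received phosphate-buffered saline (PBS) or angiotensin II with β-aminopropionitrile (Ang-II/BAPN), a pairing used to provoke aortic dissection in mice. Angiotensin II raises blood pressure, and β-aminopropionitrile inhibits lysyl oxidase enzymes, so that newly made elastin and collagen stay poorly cross-linked. Cthrc1 encodes a secreted collagen triple helix repeat protein, and the Cthrc1-/- libraries are called knockout here. Each combination of genotype and treatment held 6 libraries. Of these, 3 carry a title beginning with F and are called the F set, and the other 3 are called the plain set. The meaning of F is not given in the labels. The sources used here give no strain, age, dose or time. They also do not tie libraries to animals, litters or days, so each p-value reflects the spread among these libraries alone, and part of that spread may be technical.

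CCN proteins signal by binding integrins, heparan sulphate proteoglycans and LRP1, and they capture or present growth factors of the TGF-β, BMP, VEGF and Wnt families. Ccn1 and Ccn2 are immediate early genes and standard targets of YAP and TAZ with TEAD factors. Ccn2 is also induced by TGF-β and angiotensin II and is widely used as a marker of fibrosis. Ccn3 is strongly expressed in vascular smooth muscle and has been described as a brake on its growth. Ccn4, formerly Wisp1, was found as a gene induced by Wnt1. Ccn5, formerly Wisp2, lacks the C-terminal module of its relatives and has been reported to oppose Ccn2 in heart and vessel.

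The coding windows below show how the members resemble and differ from each other. The first set encodes the cysteine signature of the N-terminal insulin-like growth factor binding protein (IGFBP) module. The second lies in the thrombospondin type 1 module, behind which the C-terminal module begins in the 4 longer members. Sequences are from the GENCODE M21 transcripts of build GRCm38, 5′ to 3′ on the coding strand, with cysteine codons in capitals.

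In the IGFBP-like module the 5 windows of 24 bases shared 14 to 20 bases between any pair:
Ccn1: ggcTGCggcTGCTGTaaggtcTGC
Ccn2: ggcTGCggcTGCTGCcgcgtcTGC
Ccn3: ggcTGCtccTGCTGTccggtgTGC
Ccn4: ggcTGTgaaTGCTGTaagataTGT
Ccn5: ggcTGTggcTGCTGTcgagtgTGT
They lie at chr3:145649331-145649354 (minus strand) for Ccn1, chr10:24595966-24595989 (plus) for Ccn2 and chr15:54746265-54746288 (plus) for Ccn3. Those of Ccn4 and Ccn5 lie at chr15:66906545-66906568 (plus) and chr2:163825225-163825248 (plus).

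In the thrombospondin module the windows of 27 bases shared 17 to 24 bases between any pair:
Ccn1: tggtcccagTGCtccaagagcTGCgga
Ccn2: tggagcgccTGTtctaagaccTGTggg
Ccn3: tggagcgcaTGTtccaagagcTGTgga
Ccn4: tggagccccTGCtctaccaccTGTggc
Ccn5: tggggccccTGCtcaaccaccTGTggg
They lie at chr3:145648308-145648334 (minus) for Ccn1, chr10:24596806-24596832 (plus) for Ccn2 and chr15:54749224-54749250 (plus) for Ccn3. Those of Ccn4 and Ccn5 lie at chr15:66917333-66917359 (plus) and chr2:163832285-163832311 (plus). Behind this window Ccn1 has 137 further codons, Ccn2 has 135, and Ccn3 and Ccn4 have 136 each. In each of these 4 genes, 13 of those codons are for cysteine. Ccn5 ends after 41 codons, of which 3 are for cysteine. Its coding length without the stop codon is 753 bases, against 1044 to 1137 bases in the other members.

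These differences also bear on the counting of reads. The longest exact run shared by transcripts of any pair of members was 28 bases, between Ccn2 and Ccn3, while the libraries were read as paired ends of 150 bases. A processed transcript on the opposite strand, Gm15270, overlaps 1667 bases of Ccn2. It held between 34 and 1174 counts per library, against at least 19327 for Ccn2. In the table the gene of Ccn1 spans 145646976 to 145649981 on chromosome 3, and that of Ccn2 spans 24595442 to 24598683 on chromosome 10. The gene of Ccn5 spans 163820861 to 163833146 on chromosome 2. Ccn3 (54745702 to 54754039) and Ccn4 (66891320 to 66923201) lie on chromosome 15, as does Cthrc1, at distances of 15.7 and 27.8 megabases from it.

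Total counts per library ran from 39.0e6 to 82.0e6, and mitochondrial genes took 9.59 to 31.9% of them. Levels are given as CPM, counts scaled to a common library size with TMM factors. Cthrc1 lay at 1.87 ± 0.378 CPM in PBS wild type and 0.366 ± 0.175 CPM in PBS knockout libraries (SD, n = 6 each). It lay at 69.0 ± 32.7 CPM in treated wild type and 4.97 ± 3.21 CPM in treated knockout libraries, with no overlap between the treated genotypes. F libraries held 188 to 1019 CPM of Xist and at most 1.32 CPM of Ddx3y, and plain libraries held at most 14.5 CPM of Xist and 43.5 to 118 CPM of Ddx3y. Libraries differed in the markers of other cells and organs. In treated libraries the sum of 8 smooth muscle markers, Acta2 and Myh11 among them, was 1536 to 5756 CPM in wild type and 7025 to 13694 CPM in knockout. In PBS libraries it was at least 15036 CPM. The sum of 6 intestinal epithelium markers was 0.444 to 216 CPM in treated wild type and at most 0.581 CPM in treated knockout libraries. In bulk tissue, fewer cells of a type and less RNA per cell cannot be told apart.

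Per length of transcript, Ccn2 was the most abundant member. In FPKM, the authors' values scaled to transcript length and library size, it was the highest of the 5 in 23 of 24 libraries, with a median of 368 FPKM and a range of 80.1 to 1125. Ccn3 followed with a median of 172 FPKM (32.3 to 482) and was the highest in the other library. Ccn1 had a median of 90.1 FPKM (36.8 to 217) and Ccn5 of 52.7 FPKM (21.5 to 265). Ccn4 was the lowest member in all 24 libraries, with a median of 3.78 FPKM (0.916 to 20.1). The ranges of Ccn1, Ccn2, Ccn3 and Ccn5 overlapped with those of their neighbours in this order, while the highest value of Ccn4 lay below the lowest of Ccn5. By median FPKM, Ccn2 stood at the 99.7th percentile of all tested genes and Ccn4 at the 68.1th. A sixth gene, Ccn6, which is not among the listed members, had a count in 11 of 24 libraries with a maximum of 14 and did not pass the filter.

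**Figure D1:**
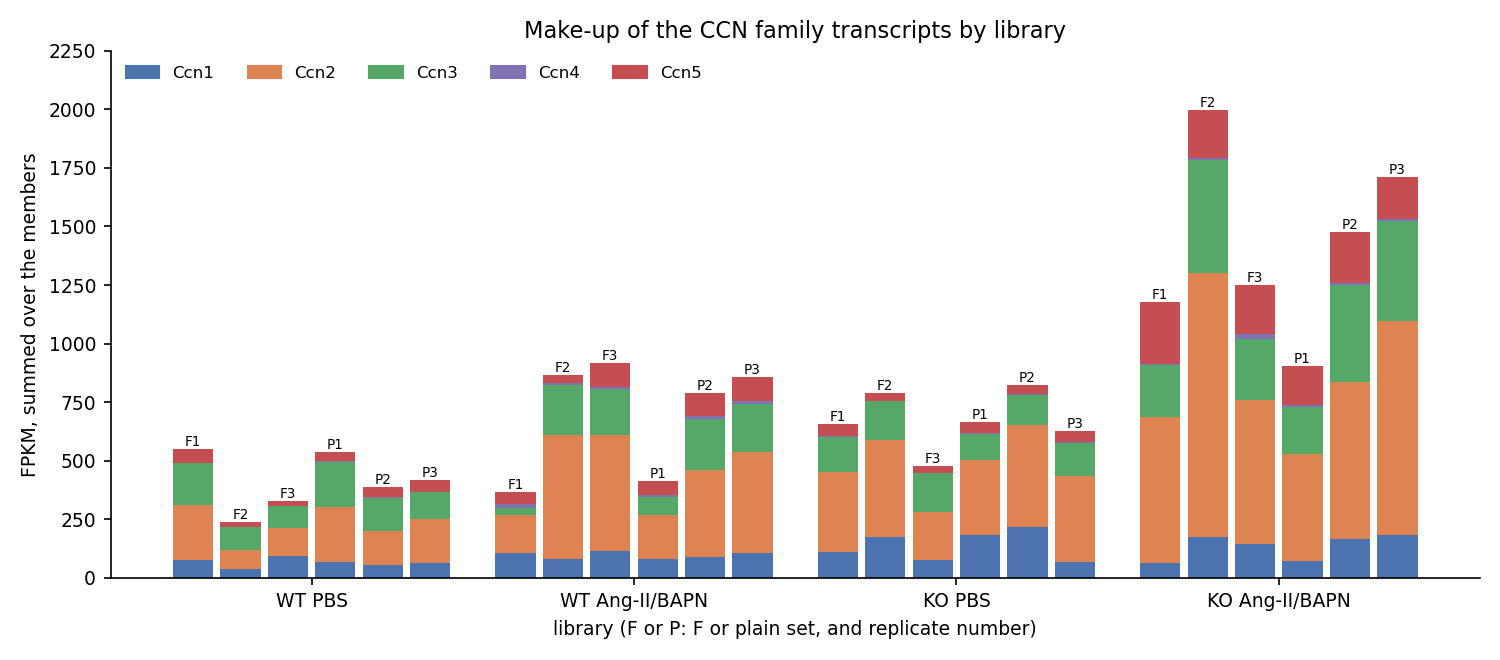
Stacked bars give the FPKM of Ccn1 to Ccn5 in each of the 24 libraries, grouped by genotype (WT wild type, KO Cthrc1 knockout) and treatment. The summed height runs from 239 to 548 FPKM in PBS wild type and from 904 to 1997 FPKM in treated knockout libraries, with Ccn2 as the largest block in all but 1 library.

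Summed over the members, FPKM had a median of 404 in PBS wild type (239 to 548) and 823 in treated wild type libraries (367 to 919). In the knockout it had a median of 661 under PBS (477 to 825) and 1363 under Ang-II/BAPN (904 to 1997). Ccn5 made 4.01 to 7.90% of the family FPKM in PBS knockout libraries and 10.3 to 22.5% in treated knockout libraries, without overlap. In wild type its share was 6.56 to 12.5% under PBS and 4.02 to 14.5% under Ang-II/BAPN, with overlap. Ccn4 made 0.280 to 0.922% in PBS wild type and 0.953 to 4.05% in treated wild type libraries, again without overlap. In the knockout its share was 0.243 to 0.669% and 0.336 to 1.61%, with overlap. The share of Ccn2 lay between 33.5 and 61.4% in all libraries. These sums and shares are descriptions without a background over all genes, and no test was made on them.

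Ang-II/BAPN raised Ccn4 in both genotypes, and it raised Ccn5 strongly in the knockout. Ccn2 and Ccn3 also passed the test in the knockout response. Ccn1 passed it in no comparison. In the treated state the knockout had more Ccn5, Ccn2 and Ccn3 than the wild type. Under PBS no member passed, but that comparison did not call Cthrc1 itself either (log2 difference -2.35, edgeR adjusted p = 0.180). A missing call there therefore does not show equal levels. For Ccn2 the log2 difference between genotypes was 0.997 (SE 0.31) under PBS and 1.17 (SE 0.31) under Ang-II/BAPN. Counts of members are set against the share of all 24623 tested genes that passed in the same direction (p under 0.05 after Benjamini-Hochberg adjustment, from edgeR's quasi-likelihood test). In the wild type response 1 of 5 members was called higher, against 13.3% of all genes. In the knockout response 4 of 5 were called higher, against 7.03% of all genes. Between the treated genotypes 3 of 5 were called higher in the knockout, against 4.26% of all genes. Under PBS, 0 of 5 members and 0% of all genes were called by edgeR. At an unadjusted p under 0.05, 2 members and 954 genes passed there, and DESeq2 called 88 genes, no member among them. No member was called lower in any comparison. These comparisons share libraries with each other: each response and each genotype contrast uses 12 of the 24.

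**Figure D2:**
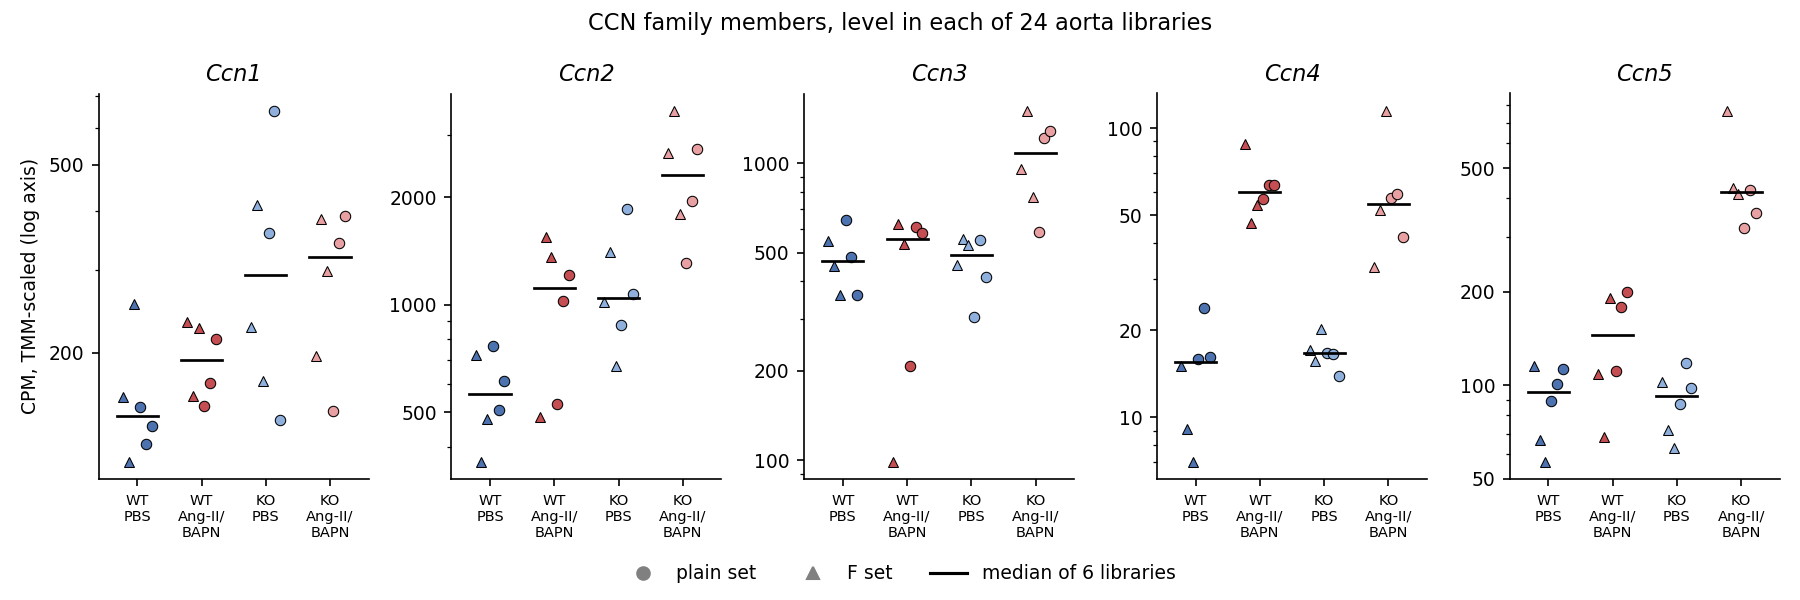
Each point is the CPM (log axis) of a member in 1 of 24 libraries, by genotype (WT wild type, KO Cthrc1 knockout) and treatment, with circles for the plain set, triangles for the F set and a line at the median of 6 libraries. Ccn4 in treated libraries of both genotypes and Ccn5 in treated knockout libraries (321 to 763 CPM) lie above all libraries of their PBS group.

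Ccn5 was the member with the largest difference between the treated genotypes. It lay at 56.8 to 115 CPM (median 95.1) in PBS wild type and 62.9 to 118 CPM (median 92.4) in PBS knockout libraries. In treated wild type libraries it lay at 68.3 to 199 CPM (median 145), and in treated knockout libraries at 321 to 763 CPM (median 420.2). The PBS groups and the treated wild type group overlapped each other. All 6 treated knockout libraries lay above all 6 PBS knockout libraries, which held for 4.69% of all genes. They also lay above all 6 treated wild type libraries, which held for 2.4% of all genes. The rise in the knockout was 2.32 in log2 units (SE 0.26, edgeR adjusted p = 1.44e-05), a 4.98-fold change. In the wild type it was 0.66 (SE 0.25, 95% interval 0.15 to 1.17, edgeR adjusted p = 0.0554), which did not pass. Treated knockout exceeded treated wild type with a log2 difference of 1.65 (SE 0.25) and an edgeR adjusted p of 0.00443. Under PBS the log2 difference was -0.0056, with a 95% interval of -0.52 to 0.50.

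The knockout rise of Ccn5 passed in each title set, at 1.87 for plain (edgeR adjusted p = 0.00879) and 2.76 for F libraries (edgeR adjusted p = 0.000673). The difference between treated genotypes was 2.12 in the F set (edgeR adjusted p = 0.0336) and 1.18 in the plain set (edgeR adjusted p = 0.222). The knockout rise was called under all 40 alternatives, with log2 values from 2.06 to 2.52. The difference between treated genotypes was called under 37 of 40. It missed the threshold when only the 12 treated libraries were fitted (1.63, edgeR adjusted p = 0.0655), a fit that called 0 of all genes. It also missed it with the smooth muscle marker sum as a covariate (1.35, edgeR adjusted p = 0.573), where 0 of all genes were called. That sum did not overlap between treated genotypes, so that it and the genotype cannot be told apart there. With the sums of intestine and kidney markers as covariates, 2 of all genes were called between treated genotypes, against 1510 in the main analysis. With these intestine and kidney covariates the Ccn5 difference fell to 0.81 (edgeR adjusted p = 0.359). These 6 intestinal markers were all called higher in the wild type response and all called lower in treated knockout than in treated wild type libraries. The wild type response of Ccn5 lay near the threshold and was called under 10 of 40 alternatives. With the intestine and kidney covariates it was 1.39 (edgeR adjusted p = 0.0315), and DESeq2 called it at 0.66 (adjusted p = 0.0367). It was also called with no filter, in both limma fits on FPKM and without the 2 libraries with high T and B cell markers. It was called at 0.67 to 0.85 when 1 of 4 libraries was left out, namely replicate 1 of PBS wild type F, replicate 2 of treated wild type F, replicate 1 of treated wild type plain or replicate 1 of treated knockout F.

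The difference between both Ccn5 responses, tested as the interaction of genotype and treatment, was 1.66 on the log2 scale (SE 0.35, unadjusted p = 0.000125). It did not pass after adjustment over all genes (edgeR adjusted p = 0.111). DESeq2 called it (1.64, adjusted p = 0.00217), as did edgeR without replicate 3 of the treated wild type F set (1.89, adjusted p = 0.0278). Among all genes edgeR called 0% in this interaction and 3132 genes at an unadjusted p under 0.05, while DESeq2 called 566. Ccn3 was the other member with an unadjusted p under 0.05 here (1.27, edgeR adjusted p = 0.282). For Ccn2 the interaction was 0.18, with a 95% interval of -0.74 to 1.09.

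Ccn4, a Wnt1-induced gene with roles in bone and fibrosis, responded to Ang-II/BAPN in both genotypes. It lay at 7.01 to 24 CPM (median 15.5) in PBS wild type and 46.9 to 88.0 CPM (median 60.1) in treated wild type libraries. In the knockout it lay at 13.8 to 20.3 CPM (median 16.7) under PBS and 33.0 to 115 CPM (median 54.7) under Ang-II/BAPN. In each genotype all 6 treated libraries lay above all 6 PBS libraries. The rise was 2.15 in log2 units in wild type (SE 0.26, edgeR adjusted p = 8.70e-06), or 4.45-fold. In the knockout it was 1.83 (SE 0.26, edgeR adjusted p = 1.09e-04), or 3.56-fold.

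All 6 above all 6 libraries held in the wild type response for Ccn4 among the members and for 6.94% of all genes. In the knockout response it held for Ccn3, Ccn4 and Ccn5 and for 4.69% of all genes. Between the treated genotypes it held for Ccn5 and for 2.4% of all genes. The Ccn4 rise passed in each title set. In wild type it was 1.71 among plain and 2.60 among F libraries, and in the knockout it was 1.75 and 1.91. The log2 difference of Ccn4 between treated genotypes was -0.07, with a 95% interval of -0.59 to 0.45, and under PBS it was 0.26 (-0.27 to 0.78). Both responses were called under all 40 alternatives, except the wild type response with the smooth muscle marker sum as a covariate (1.16, edgeR adjusted p = 0.578). That sum moved with treatment in every wild type library, so that it and the treatment cannot be told apart there. Under that covariate 7 of all genes were called in the wild type response.

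Ccn2, the most abundant member, ran from 363 to 768 CPM (median 560.4) in PBS wild type and from 484 to 1552 CPM (median 1118) in treated wild type libraries. In the knockout it ran from 674 to 1851 CPM (median 1045) under PBS and from 1313 to 3493 CPM (median 2306) under Ang-II/BAPN. Each treated group overlapped with its PBS group, and the treated genotypes overlapped with each other. The knockout response was 1.01 in log2 units (SE 0.31, edgeR adjusted p = 0.0420). In wild type it was 0.83 (SE 0.31, 95% interval 0.18 to 1.49, edgeR adjusted p = 0.0571). Treated knockout exceeded treated wild type by 1.17 (SE 0.31, edgeR adjusted p = 0.0332). Under PBS the log2 difference was 0.997 (SE 0.31, unadjusted p = 0.00476) and did not pass (edgeR adjusted p = 0.9999).

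Both Ccn2 calls lay close to the threshold. The knockout response was lost on leaving out any of 14 of the 24 libraries (edgeR adjusted p from 0.0502 to 0.116), with log2 values that stayed between 0.87 and 1.02. These were the 6 PBS wild type libraries, replicates 1 and 3 of both PBS knockout sets, replicates 1 and 2 of treated knockout F, and replicates 2 and 3 of treated knockout plain. The difference between treated genotypes was lost on leaving out any of 7 (edgeR adjusted p from 0.0560 to 0.0907), at log2 values of 0.99 to 1.21. They were the same 4 treated knockout libraries, replicate 1 of treated wild type F and replicates 1 and 2 of treated wild type plain. The wild type response of Ccn2 was called under 11 of 40 alternatives. Among them were DESeq2 (0.84, adjusted p = 0.0312), limma on log2(FPKM + 1) (1.06, adjusted p = 0.0243), no filter on low counts and both other treatments of the title set. It was also called on leaving out replicate 1 of PBS wild type F, of treated wild type F or of treated wild type plain (0.98 to 1.02).

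The last 2 of these libraries stood apart for Ccn2 and Ccn3. Replicate 1 of the treated wild type F set had 484 CPM of Ccn2 and replicate 1 of the plain set had 527 CPM, while the other 4 libraries of that group lay at 1024 CPM or more. They also had the lowest smooth muscle marker sums of all 24 libraries, 1536 and 2306 CPM, and the highest sums of T and B cell markers. The F library also had the highest sums of red cell markers (48169 CPM) and macrophage markers (4820 CPM). In the plain library these were 603 and 1197 CPM. Without these 2 libraries, the wild type response of Ccn2 was 1.16 (edgeR adjusted p = 0.00838), and the difference between treated genotypes was 0.85 (edgeR adjusted p = 0.110). With the smooth muscle marker sum as a covariate that difference was -0.059, a change of sign, in a fit that called 0 of all genes there. The sum did not overlap between the treated genotypes or between treatments within a genotype, so it cannot be told apart from them. The same covariate took the wild type response of Ccn2 to 2.87 (edgeR adjusted p = 0.00976) and the knockout response to 1.86 (edgeR adjusted p = 0.000214). In PBS knockout libraries the highest values of Ccn2, 1403 and 1851 CPM, came from replicate 2 of each set. Those libraries had the highest smooth muscle marker sums, 29794 and 30434 CPM, and are among 5 libraries with more than 4 CPM of the small nuclear RNA Rn7sk. Without these 5 libraries the PBS difference of Ccn2 was 0.43.

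Ccn3 ran from 361 to 643 CPM (median 467) in PBS wild type and from 98.8 to 624 CPM (median 557) in treated wild type libraries. In the knockout it ran from 303 to 557 CPM (median 492) under PBS and from 588 to 1499 CPM (median 1085) under Ang-II/BAPN. The knockout groups did not overlap, and the wild type groups did. The log2 change was 1.17 in the knockout (SE 0.36, edgeR adjusted p = 0.0391) and -0.10 in wild type, with a 95% interval of -0.84 to 0.64. Treated knockout exceeded treated wild type by 1.25 (SE 0.36, edgeR adjusted p = 0.0443). The 98.8 and 207 CPM of the lowest treated wild type libraries came from the same replicates 1 named for Ccn2. Without both, the wild type response was 0.31 (edgeR adjusted p = 0.415) and the difference between treated genotypes was 0.84 (edgeR adjusted p = 0.0792). With the smooth muscle covariate, which has the limit given for Ccn2, that difference was -0.096 and the knockout response was 2.12 (edgeR adjusted p = 0.000328).

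The call of Ccn3 between treated genotypes was kept on leaving out any of 5 libraries, and lost on leaving out any of the other 19 (edgeR adjusted p from 0.0503 to 0.106), with log2 differences that stayed between 1.07 and 1.37. The 5 were the 3 treated wild type F libraries, replicate 3 of treated knockout F and replicate 1 of treated knockout plain. The knockout response was lost on leaving out any of 12 (edgeR adjusted p from 0.0505 to 0.107), at log2 values of 1.01 to 1.27. These were the 6 PBS knockout libraries, replicates 1 and 2 of PBS wild type F, replicates 1 and 2 of treated knockout F, and replicates 2 and 3 of treated knockout plain.

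Ccn1, an angiogenic immediate early gene, passed in no comparison and under none of the alternatives. It ran from 118 to 254 CPM (median 147) in PBS wild type and from 155 to 232 CPM (median 194) in treated wild type libraries. In the knockout it ran from 144 to 651 CPM (median 293) under PBS and from 151 to 390.0 CPM (median 319) under Ang-II/BAPN. All 4 groups overlapped. The log2 change was 0.29 in wild type (95% interval -0.37 to 0.95) and -0.14 in the knockout (-0.79 to 0.52). Its largest difference was between genotypes under PBS, 1.03 on the log2 scale (SE 0.32, unadjusted p = 0.00419, edgeR adjusted p = 0.971). The 2 highest PBS knockout libraries, at 411 and 651 CPM, were the same replicates 2 that were highest for Ccn2. Without the 5 libraries with high Rn7sk the difference was 0.57. Between treated genotypes it was 0.60 (-0.06 to 1.26).

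**Figure D3:**
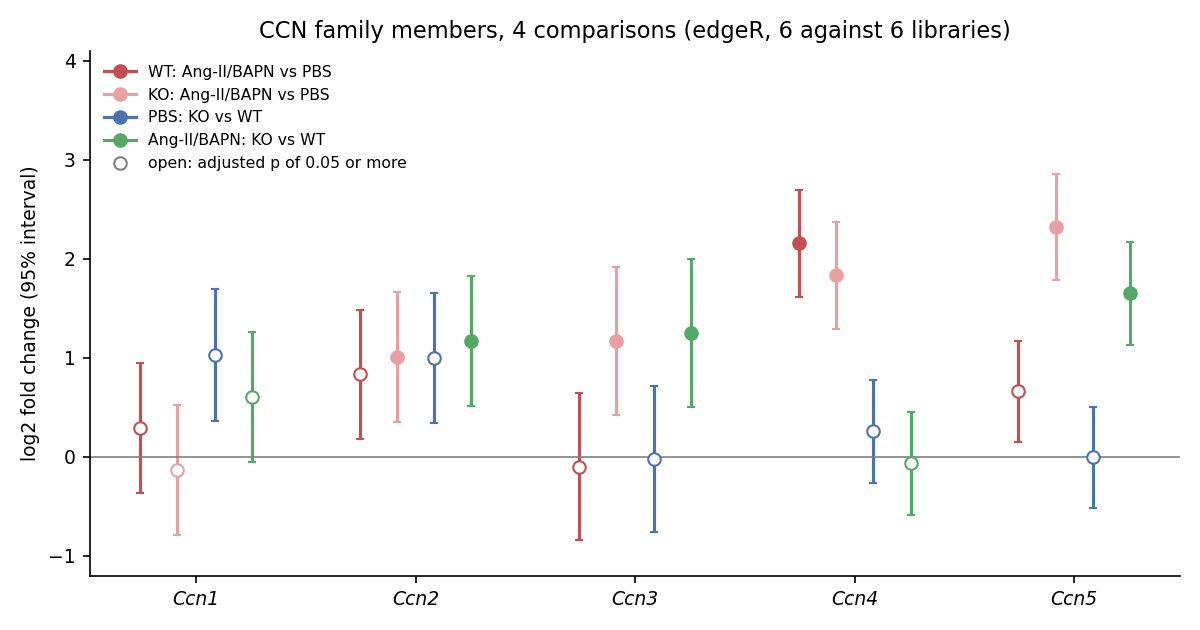
Points give the log2 fold change of each member in 4 comparisons of 6 against 6 libraries, with bars for the 95% interval and filled points where the edgeR adjusted p is under 0.05. Ccn4 is filled in both responses, Ccn5 in the knockout response and between treated genotypes, and Ccn1 in none.

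Within the title sets, calls rested on 3 libraries a group. In the wild type response 1 member, Ccn4, was called in each set, with a background of 4.72% of all genes for plain libraries and 7.85% for F libraries. In the knockout response Ccn4 and Ccn5 were called in each set, 2 of 5 members, with a background of 1.62% for plain and 4.4% for F libraries. Between treated genotypes 0 members were called in the plain set, against 0.00406% of all genes, and 3 members had an unadjusted p under 0.05, as did 2686 of all genes. In the F set 1 was called, Ccn5, against 0.126%. Tested directly, the responses of the 5 members did not pass as different between the sets in either genotype, where edgeR called 0% of all genes for each. At an unadjusted p under 0.05, 0 members passed there, against 1647 genes for the wild type and 931 for the knockout response. The largest such difference was 0.89 for the knockout response of Ccn5 (F over plain, 95% interval -0.13 to 1.91). Between the sets themselves 0 members were called, against 0.122% of all genes.

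Over all 24 libraries the Pearson r of log2 CPM between members ran from 0.12 (Ccn1 with Ccn4) to 0.77 (Ccn2 with Ccn3). Within the groups the members did not vary together as a block. Deviations of log2 CPM from the means of the 8 groups were compared over the 24 libraries, which share their library and its depth, as a description. Ccn2 and Ccn3 went together most closely, with a Pearson r of 0.86. The r of Ccn1 with Ccn2 was 0.44, that of Ccn2 with Ccn5 was 0.35, and that of Ccn4 with Ccn5 was 0.01. Against the smooth muscle marker sum of the same library the r was 0.85 for Ccn2 and 0.84 for Ccn3. It was 0.32 for Ccn1, 0.23 for Ccn5 and -0.48 for Ccn4. Against T and B cell markers it was 0.52 for Ccn4 and -0.57 and -0.58 for Ccn2 and Ccn3. Against macrophage markers it was 0.24 for Ccn4 and -0.45 and -0.63 for Ccn2 and Ccn3.

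**Figure D4:**
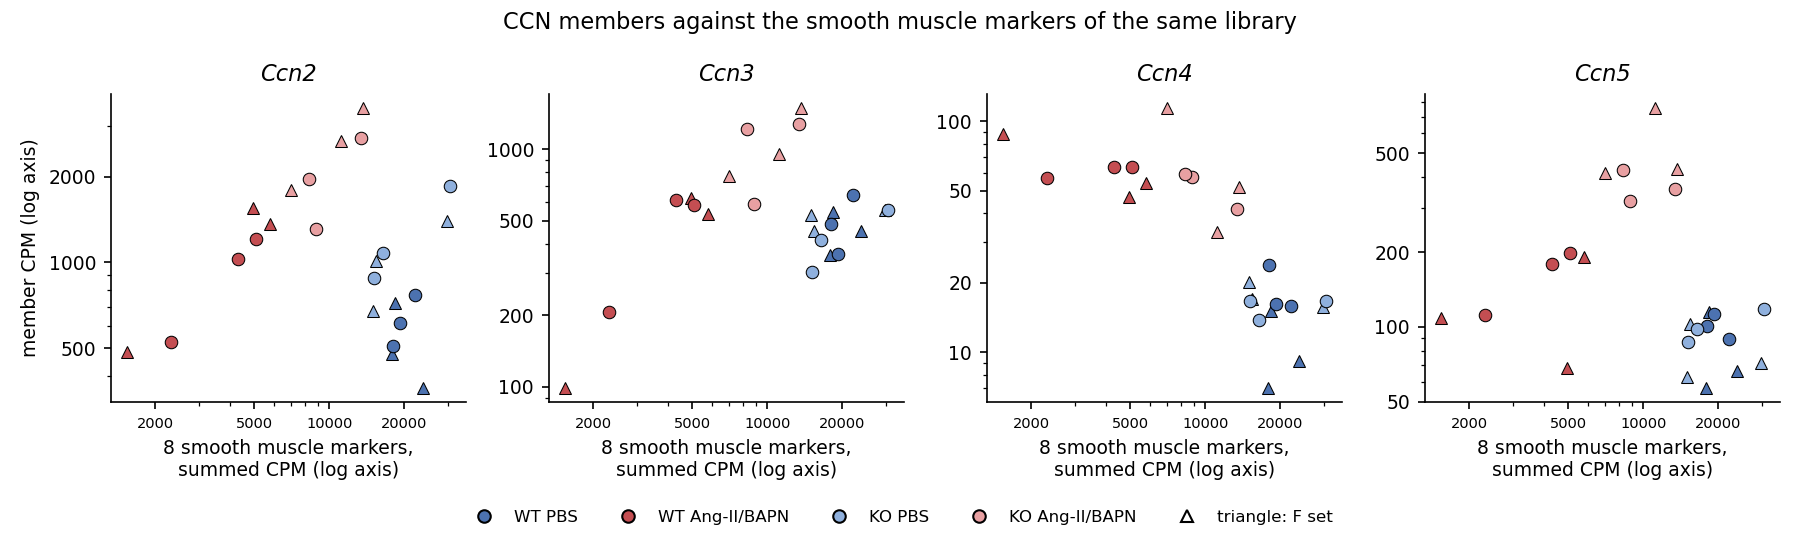
The CPM of Ccn2, Ccn3, Ccn4 and Ccn5 (vertical, log axis) is plotted against the summed CPM of 8 smooth muscle markers (horizontal, log axis) in 24 libraries coloured by genotype and treatment, with triangles for the F set. Treated wild type libraries lie lowest on the horizontal axis, at 1536 to 5756 CPM, and within them Ccn2 and Ccn3 are lowest where the marker sum is lowest.

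Smooth muscle markers fell in the wild type response in 8 of 8 genes and in the knockout response in 3 of 8. Between treated genotypes 6 of 8 were higher in the knockout. Fibroblast markers, which include Pdgfra, Dcn and Lum, rose in 6 of 8 genes in the knockout response. In the wild type response 2 of 8 rose and 2 fell, and between treated genotypes 3 of 8 were higher in the knockout. Their summed level was 3208 to 9991 CPM in treated knockout and 2054 to 4670 CPM in treated wild type libraries. Their summed level under PBS was 2622 to 4264 CPM in wild type and 2686 to 4517 CPM in knockout libraries. Macrophage markers rose in 7 of 8 genes in each response, to sums of 836 to 4820 CPM in treated wild type and 898 to 1918 CPM in treated knockout libraries, from at most 395 CPM under PBS. T and B cell markers rose in 8 of 8 genes in the wild type response and in 0 of 8 in the knockout response. Their sum was 14.4 to 161 CPM in treated wild type and 5.98 to 31.4 CPM in treated knockout libraries, and at most 18.9 CPM under PBS. Neutrophil markers rose in 6 of 6 genes in each response, and their sum was 39.4 to 259 CPM in treated wild type, 22.4 to 185 CPM in treated knockout and at most 4.97 CPM in PBS libraries. Endothelial markers fell in 4 of 8 genes in each response, with 1 of 8 rising in wild type. Chondrocyte markers rose in 4 of 6 genes in wild type and 3 of 6 in the knockout, and 1 fell in each. Kidney tubule markers, used with the intestinal ones as covariates, fell in 2 of 6 genes in the knockout response and in 0 of 6 in wild type. Their sum was 83.7 to 622 CPM in PBS wild type, 9.14 to 2892 CPM in treated wild type, 103 to 2531 CPM in PBS knockout and 3.71 to 673 CPM in treated knockout libraries. Of the 6 intestinal markers, 1 had no count in PBS wild type libraries and 1 had none in treated knockout libraries. Every marker of the other lists had a count in each group. The part of the cells of these lists in the results for Ccn4 and the fibroblast part in those for Ccn5 was not tested.

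Genes with the most similar pattern over the 24 libraries were taken as the 3 with the highest Pearson r of log2 CPM among 13421 named genes of at least 2 CPM. For Ccn5 these were Cx3cl1, a chemokine (0.91), Gpr39, a zinc-sensing receptor (0.89), and Sned1, a matrix glycoprotein (0.89). For Ccn4 they were Cdh11, a mesenchymal cadherin, Mki67, a marker of dividing cells, and Runx1, a transcription factor, each at 0.96. For Ccn3 they were Mical2, an actin-oxidising enzyme (0.88), Pam, which amidates peptides (0.85), and Dkk3, a secreted Dickkopf protein (0.81). For Ccn2 they were the collagen genes Col6a3 (0.84) and Col4a2 (0.82) and Olfml2b (0.84). For Ccn1 the values were lower, at 0.70 for Klf16, 0.67 for Dda1 and 0.67 for Ppp1r10. For deviations from group means, r over these pairs ran from 0.59 (Ccn5 with Cx3cl1) to 0.92 (Ccn3 with Mical2). All these points share library, depth and group, and no test was made.

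Counts of related genes are set against the shares of all tested genes called. Called lower were 11.5% of genes for wild type, 4.4% for the knockout and 1.87% between treated genotypes, beside the 13.3, 7.03 and 4.26% called higher. Of 20 other genes known as targets of YAP with TEAD factors, 5 rose and 3 fell in the wild type response, and 3 rose and 0 fell in the knockout response. Their median log2 change was 0.09 and 0.35, against 0.01 and -0.03 for all tested genes. Ankrd1, a muscle ankyrin repeat protein often measured beside Ccn1 and Ccn2, rose by 1.38 in wild type and 1.59 in the knockout. Nt5e, which makes adenosine, rose by 2.35 and the kinase gene Nuak2 by 2.19 in wild type. Arhgef17, the gene of this list with the smallest adjusted p in wild type, fell there (-1.31) and was higher by 0.75 in treated knockout than in treated wild type. Igfbp3 rose by 1.64 in wild type and was lower in treated knockout than in treated wild type by a log2 difference of -1.63. Ccdc80, a matrix protein gene, rose by 1.04 in the knockout and was higher by 0.74 between the treated genotypes. In that last comparison 3 of the 20 were higher and 1 was lower.

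Of 14 genes of the Hippo kinase pathway and the TEAD factors, 3 rose and 2 fell in wild type and 0 passed in the knockout response. The kinase gene Stk4 rose by 1.01 and its partner Sav1 by 0.63 in wild type. Tead3 fell, with a log2 change of -1.33, in wild type, and was higher in treated knockout than in treated wild type by 1.04. Of 14 immediate early genes, 4 rose in both genotypes and 2 fell in wild type. Fosl1 rose by 2.49 and 2.44, Egr2 by 1.51 and 1.38, Myc by 1.72 and 1.21, and Junb by 0.85 and 1.44 in wild type and knockout. Dusp1, which encodes a phosphatase that switches off MAP kinases, fell in wild type (-1.15), and its change in the knockout was -0.57, which did not pass. Between treated genotypes 2 of the 14 were higher in the knockout.

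Of 12 genes for TGF-β ligands, receptors, Smads and latency proteins, 3 rose and 2 fell in wild type and 3 rose in the knockout. Tgfb1 rose by 0.79 and 0.63 and its receptor gene Tgfbr2 by 0.61 and 0.64. Ltbp1 and Ltbp4, which hold latent TGF-β in the matrix, fell in wild type (-1.34 and -2.03) and were higher by 1.27 and 1.28 in treated knockout than in treated wild type. In that comparison 5 of the 12 were higher and 0 lower. Of 12 TGF-β response genes, 4 rose and 3 fell in wild type and 4 rose in the knockout. Their median change was 0.78 and 0.87. Ltbp2 rose by 2.26 and 2.59, Col1a1 by 1.60 and 1.56, Col1a2 by 1.44 and 1.40, and Tgif1 by 1.28 and 0.99. The 3 that fell in wild type were Smad7 (-0.73), Pmepa1 (-0.67) and Ski (-0.45), and they did not pass in the knockout. Between treated genotypes 2 of the 12 were higher in the knockout, Smad7 by 0.69 and Pmepa1 by 0.97, and 0 were lower.

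Of 12 genes for receptors and partners of CCN proteins, 3 rose in wild type and 4 in the knockout, with 0 falls. Itgam and Itgb2, the chains of a leukocyte integrin that binds Ccn1, rose by 4.58 and 3.97 in wild type and by 3.74 and 3.11 in the knockout. Macrophage markers rose in the same comparisons, as given above. The endocytic receptor gene Lrp1 rose by 0.64 and 1.09, and Itga5, a chain of the fibronectin receptor, rose by 1.22 in the knockout. Between treated genotypes 1 of the 12 was higher. Of 12 Wnt target genes other than Ccn4 and Ccn5, 3 rose and 2 fell in wild type, and 1 rose and 1 fell in the knockout. Lgr5 rose by 1.91 and 2.004, while Nkd1, a Wnt antagonist, fell in both (-2.40 and -1.10). Apcdd1 fell in wild type (-1.05), and its change in the knockout was -0.50, which did not pass. Tcf7 and Lef1, which T cells also express, rose by 2.64 and 1.9995 in wild type, where the T and B cell markers rose. The part of T cells in these rises was not tested. Between treated genotypes 1 of the 12 was higher and 2 were lower.

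**Figure D5:**
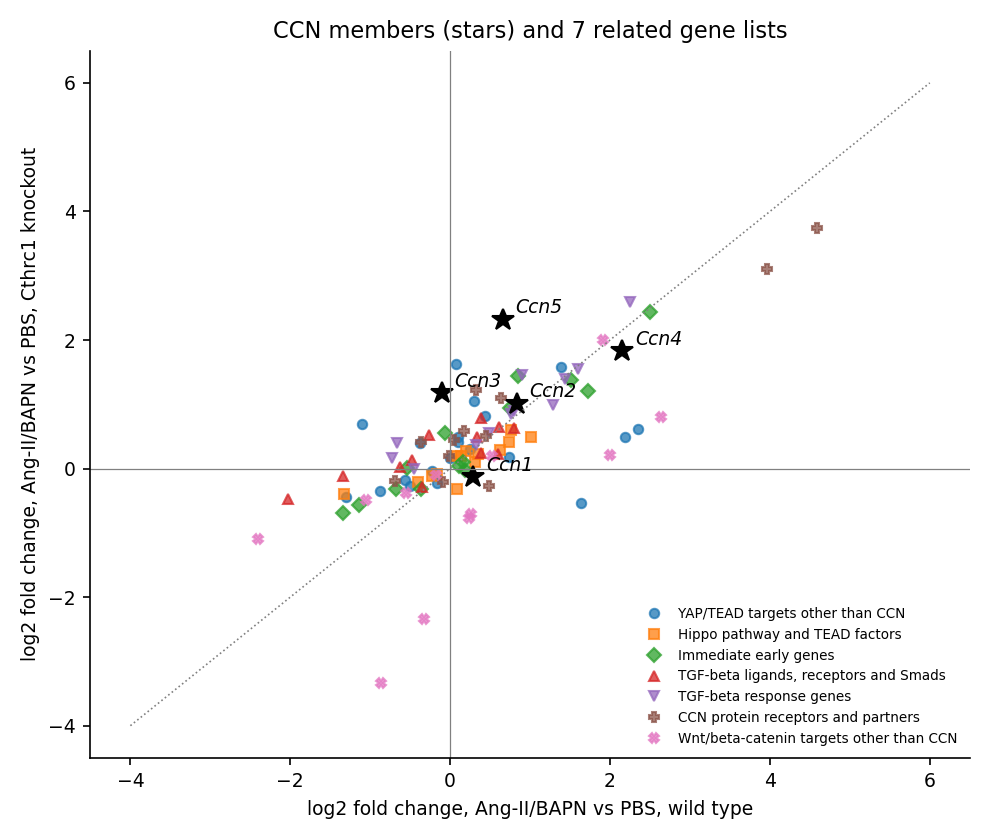
The log2 fold change of Ang-II/BAPN against PBS is plotted for wild type (horizontal) and knockout (vertical) for the 5 members (stars) and 96 genes of 7 lists, with a dotted line where both are equal. Ccn5 and Ccn3 lie above the line (0.66 and 2.32, and -0.10 and 1.17), while Ccn4 lies near it at 2.15 and 1.83.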

How the data were processed

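The 24 libraries of mouse aorta RNA were made with a stranded total RNA kit, per the labels' protocols. For every gene and library the authors deposited a count of reads and an FPKM value, per the file headers. The submitters' processing notes name HISAT2, StringTie, DESeq2 and build GRCm38, without versions or roles. How reads were counted and whether strand was used is not stated. Columns of 2 libraries without labels, 4 in all, were left out.

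Genes were filtered with filterByExpr of edgeR 4.0.16 (minimum count 10, minimum total 15; R 4.3.3), which kept 24623. After TMM scaling, the 8 groups of 3 libraries were fitted by robust quasi-likelihood, with Benjamini-Hochberg adjustment over all tested genes and a threshold of 0.05. Fold changes, their standard errors and 95% intervals are on the log2 scale. The common biological coefficient of variation was 57.0%, so the spread between libraries, rather than depth, limits precision. The fit was also tested on simulated data. FPKM served to compare levels between genes and, as log2(FPKM + 1), in limma 3.58.1.

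Alternatives were RLE factors, DESeq2 1.42.0, other filters, title set terms, only the libraries compared, a replicate block, no mitochondrial genes, a minimum fold change of 2, and the omission of single libraries. Fits without 5 libraries with high Rn7sk, without 2 with high T and B cell markers, and with marker sums as covariates were chosen after seeing the data. The members and gene lists were chosen with earlier results of these data known. Named genes are the members, Cthrc1, Ccn6, per list up to 4 genes with the smallest adjusted p in each response, and the 3 genes most like each member. Xist and Ddx3y check the title sets. Gm15270, Rn7sk and the 3 falling TGF-β response genes were named after their values were seen.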

Additional observations from a re-analysis of the deposited data

Results flagged for a closer look

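In each group of 6 libraries of a genotype and treatment, the highest and lowest library was compared with its nearest neighbour by Dixon's criterion at the 95% level. This was done for 5 members in 4 groups, 20 groups in all, of which chance alone flags about 1. It marked 3 libraries, all in the F set and each for 1 member. Ccn1 was 254 CPM in replicate 3 of PBS wild type, against 161 CPM in the next library. Ccn4 was 115 CPM in replicate 3 of treated knockout, against 59.2 CPM. Ccn5 was 763 CPM in replicate 1 of treated knockout, against 430.0 CPM, and that library also had 11.3 CPM of Rn7sk, the highest among treated libraries. Leaving out that library left the knockout response of Ccn5 called. What sets these libraries apart was not tested.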

How the results depend on the processing

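Each result was recomputed with each of 24 libraries left out and under up to 16 other alternatives. The rises of Ccn4 and Ccn5 in the knockout were called in each of these. Between treated genotypes (3 members called) 1 was called with no filter on low counts, with limma on log2(FPKM + 1) and log2(FPKM + 0.1), without the 5 high Rn7sk libraries and without the 2 libraries with high T and B cell markers. There 0 were called with only the libraries compared, with intestine and kidney covariates and with the smooth muscle covariate. These fits called 0, 2 and 0 of all genes, in that order. Leaving out 1 library gave 1 to 3. In the knockout response (4 called) 2 were called with limma on log2(FPKM + 1) and with the intestine and kidney covariates, and leaving out 1 library gave 2 to 4. RLE factors lost Ccn2 there (edgeR adjusted p = 0.0537) and Ccn3 between treated genotypes (edgeR adjusted p = 0.0507). With limma on log2(FPKM + 0.1) Ccn3 was lost in the knockout response (adjusted p = 0.0686). Of 40 alternatives, 23 called the knockout response of Ccn2 and 24 that of Ccn3. Between treated genotypes 25 called Ccn2 and 12 called Ccn3. In the wild type response (1 called) 3 were called with no filter, DESeq2, both limma fits and without the 2 T and B cell libraries, and 2 with the title set as an added term, with no title set term and with the intestine and kidney covariates. Leaving out 1 library gave 1 to 3 there and 0 to 1 in the interaction, where DESeq2 called 1. Under PBS 0 were called throughout. The cause was not tested.

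Signs changed, with 1 exception, only for log2 values that had not passed in the main analysis. The exception was the smooth muscle covariate, a sum that did not overlap between treated genotypes. It took Ccn2 and Ccn3 between treated genotypes to -0.059 and -0.096. It gave 0.50 for Ccn4 there, 2.24 for Ccn3 in the wild type, 0.22 for Ccn1 in the knockout and 0.024 for Ccn3 under PBS, and in the interaction -1.01 for Ccn2, -0.12 for Ccn3 and 0.25 for Ccn4. Without the high Rn7sk libraries, where PBS wild type F keeps 1 library assumed to vary like the others, Ccn1 was 0.52 in the knockout and 0.14 in the interaction, and Ccn4 was 0.091 between treated genotypes and 0.087 in the interaction. Without the T and B cell libraries Ccn3 was 0.31 in wild type, Ccn4 0.067 between treated genotypes and Ccn2 -0.15 in the interaction. With the intestine and kidney covariates Ccn4 was 0.054 between treated genotypes and Ccn5 0.14 under PBS. With no filter Ccn3 was 0.0083 in wild type and 0.0028 under PBS, and Ccn5 was 0.019 under PBS. Both limma fits gave Ccn3 0.12, and Ccn5 0.14 and 0.15, under PBS, and Ccn2 -0.0083 and -0.011 in the interaction. Ccn5 under PBS was 0.0021 with RLE factors, 0.0021 with DESeq2, 0.0030 without mitochondrial genes, 0.0030 with only the libraries compared and 3.1e-05 with the replicate block. Leaving out 1 library moved Ccn3 from -0.30 to 0.14 in wild type and from -0.14 to 0.094 under PBS, Ccn1 from -0.33 to 0.15 in the knockout, Ccn4 from -0.39 to 0.092 between treated genotypes, Ccn5 from -0.12 to 0.19 under PBS and Ccn2 from -0.025 to 0.32 in the interaction.

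The replicate numbers were not used to pair the libraries. Over all groups, same-numbered libraries correlated in their deviations from group means at a mean r of -0.014 and others at 0.0074. Single same-numbered pairs within a title set had r from -0.469 to 0.487, so the mean cannot exclude pairing between single groups. The fit with the replicate block called 1, 4, 0, 3 and 0 members in the wild type response, the knockout response, under PBS, between treated genotypes and in the interaction, as without it. The spread between libraries, not depth, limits these comparisons.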
